A study of Mus musculus with 6 samples.

Results

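The genes described here are 9 markers and transcription factors by which macrophages are recognized. Lyz2, Adgre1 and Mpeg1 encode products of the mature cell, and Spi1, Irf5, Irf8, Maf, Cebpa and Cebpb encode factors that bind DNA. They were taken by gene symbol from a table of 33965 mouse genes, and all 9 were found once each and all 9 were among the 19602 genes with enough counts to be tested. They were selected on earlier values of these data, the differences in counts between GB2 and PBS tumors, so the differences of these 9 genes are given as a description, with no p-value for any of them. Counts of them past a limit stand beside the share of all genes, with nothing read from them.

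The RNA of whole tumor pieces was sequenced, without separating their cells. The libraries came from 6 tumors labelled MC38, a mouse colon carcinoma line, grown under the skin of C57BL/6 mice. The PBS group held 3 tumors of mice given the carrier saline, and the GB2 group held 3 tumors of mice given GB2, a prodrug in which MSA-2, an agonist of STING, is linked to artesunate, which inhibits the myeloid receptor TREM2. The labels give no dose, time, age or sex, and name no genetic change in the mice. The labels do not say that each tumor came from a mouse of its own, so p-values measure the spread between these tumors. Total counts ran from 64764405 to 69878156 in PBS tumors and from 81210553 to 83690056 in GB2 tumors. PBS tumor 1 lay apart from the other tumors on the first principal component of scaled log2 counts, which held 34% of the variance. Without it, the log2 fold changes of the 9 genes described below were 1.99 for Lyz2, 2.84 for Adgre1, 1.91 for Mpeg1, 1.63 for Spi1, 1.46 for Irf5, 1.12 for Irf8, 0.08 for Maf, 0.66 for Cebpa and 0.20 for Cebpb.

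The RNA did not match the labelled line. Genes of pigment cells were high in all 6 tumors, and genes that define intestinal epithelium were at or near 0 or low. Levels are given in FPKM, a read count divided by transcript length and library size, which allows different genes to be compared. Pmel, which encodes a protein of the melanosome matrix, ran from 735 to 1840 FPKM, Tyrp1 from 734 to 1780 FPKM, Dct from 690 to 1170 FPKM and Sox10, a transcription factor of the neural crest lineage, from 93.0 to 241 FPKM. Cdx2, a factor that defines intestinal epithelium, was listed at 0 in 5 of 6 tumors and at 0.0126 FPKM in the other, and Epcam, a surface marker of epithelial cells, ran from 0.0744 to 0.456 FPKM. The highest intestinal genes were Lgals4, at 1.98 to 4.19 FPKM, and Vil1, at 0.357 to 1.48 FPKM, both above 0 in all 6 tumors. The summed level of 8 pigment cell genes was between 3190 and 5490 FPKM per tumor, and that of 7 intestinal genes was between 2.39 and 5.88 FPKM. Both groups showed this pattern, and the 8 pigment cell genes overlapped between the groups. The tumors are therefore called the PBS and GB2 tumors below, as labelled for treatment. These 2 lists were chosen after the values had been seen.

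**Figure D1:**
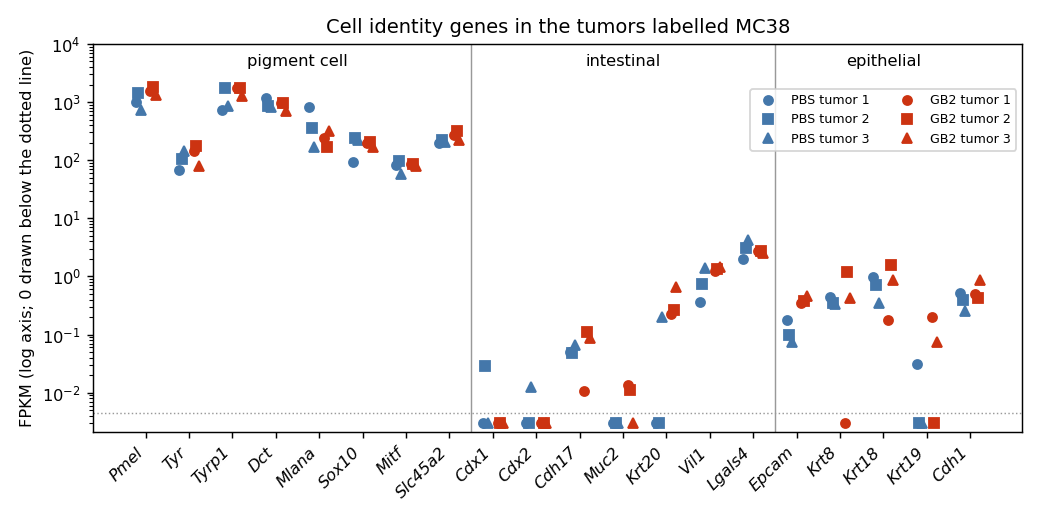
FPKM on a log axis of 8 pigment cell, 7 intestinal and 5 epithelial genes in each of the 6 tumors, with blue symbols for PBS and red for GB2 tumors and 1 symbol shape per tumor number. All pigment cell values lie at or above 58.4 FPKM, while no intestinal or epithelial value exceeds 4.19 FPKM.

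Macrophages derive from monocytes or from embryonic precursors, and their identity is set by a small group of transcription factors. PU.1, encoded by Spi1, binds the enhancers of most macrophage genes and acts with C/EBP factors, which drive the myeloid program, and with interferon regulatory factors, which couple it to inflammatory signals. In tumors, macrophages are often the most numerous immune cells, and F4/80, lysozyme and perforin-2 are among the products by which they are detected.

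Promoter sequences were available for 6 of the 9 genes, from RefSeq on GRCm38.p6, and Spi1, Adgre1 and Maf had no entry. The 250 bases before the start site are shown for the identity genes with the highest levels and for factors with different behavior in the tumors, because the 2 kinds differ in base composition. Capitals mark matches to AGGAAG, the core bound by PU.1 and other ETS factors, to TTNNGNAA, a loose form of the C/EBP site, both on either strand, and to TATAAA on the gene strand.
Lyz2, chr10:117282273-117282522, minus strand: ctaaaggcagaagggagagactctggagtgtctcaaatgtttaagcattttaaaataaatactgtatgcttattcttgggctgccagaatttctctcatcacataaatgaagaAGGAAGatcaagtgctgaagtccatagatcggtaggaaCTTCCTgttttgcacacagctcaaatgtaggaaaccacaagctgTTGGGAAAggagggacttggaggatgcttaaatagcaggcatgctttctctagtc
Mpeg1, chr19:12460520-12460769, plus strand: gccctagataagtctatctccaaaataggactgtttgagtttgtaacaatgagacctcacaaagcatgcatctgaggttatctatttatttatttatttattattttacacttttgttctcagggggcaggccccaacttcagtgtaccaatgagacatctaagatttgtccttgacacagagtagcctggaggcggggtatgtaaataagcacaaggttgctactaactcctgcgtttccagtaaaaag
Irf8, chr8:120736108-120736357, plus strand: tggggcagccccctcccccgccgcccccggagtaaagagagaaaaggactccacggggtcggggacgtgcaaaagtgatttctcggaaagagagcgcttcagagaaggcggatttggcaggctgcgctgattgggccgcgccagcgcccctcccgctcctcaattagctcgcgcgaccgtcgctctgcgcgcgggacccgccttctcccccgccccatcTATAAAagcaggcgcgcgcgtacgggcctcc
Cebpa, chr7:35119043-35119292, plus strand: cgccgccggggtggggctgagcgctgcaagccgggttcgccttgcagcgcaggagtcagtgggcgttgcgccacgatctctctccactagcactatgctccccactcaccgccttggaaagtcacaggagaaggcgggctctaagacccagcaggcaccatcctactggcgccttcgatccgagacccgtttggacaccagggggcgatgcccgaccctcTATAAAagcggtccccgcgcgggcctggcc
Cebpb, chr2:167688665-167688914, plus strand: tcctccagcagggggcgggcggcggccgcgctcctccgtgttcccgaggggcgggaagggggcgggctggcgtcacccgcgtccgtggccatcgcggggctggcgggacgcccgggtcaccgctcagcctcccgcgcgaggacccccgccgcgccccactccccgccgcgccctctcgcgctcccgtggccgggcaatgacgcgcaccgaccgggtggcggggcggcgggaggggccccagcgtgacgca

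The 250 bases were 41.6% G or C for Lyz2 and 40% for Mpeg1, against 72.0% for Irf5, 67.2% for the first Irf8 promoter, 66.4% for Cebpa and 81.6% for Cebpb, and a median of 52.4% over 32851 promoters. The second Irf8 promoter, not shown, was at 54.0%, near that median. Lyz2 held 1 CG dinucleotide and Cebpb held 41. AGGAAG occurred in 1 of the 7 promoters of these genes, counting both Irf8 promoters, and in 29.5% of all promoters of this length. That one was Lyz2, with matches that begin 137 and 99 bases before the start site. TTNNGNAA occurred in 2 of 7, those of Lyz2 and Irf5, and in 36.8% of all promoters. TATAAA occurred in 2 of 7, those of Cebpa and Irf8, and in 7.59% of all promoters, and the paired GAAA of interferon response elements, searched on both strands with any 2 bases between its blocks, occurred in 0 of 7 and in 2.98% of all promoters. The motifs did not overlap each other in these promoters. A match describes letters in this window and is not a binding site that was measured.

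Among the identity genes, all 3 were higher in every GB2 tumor than in every PBS tumor, as were 8.61% of all genes tested. In whole tumors, more macrophages and more RNA of these genes per macrophage cannot be told apart. Lyz2 (ENSMUSG00000069516, minus strand, chr10:117113236-117118226 in the coordinates of the table), which encodes the lysozyme M of macrophages and granulocytes, was the most abundant of the 9 genes. It stood at 16.7, 27.8 and 23.2 FPKM in PBS tumors 1, 2 and 3 and at 107, 90.1 and 108 FPKM in GB2 tumors 1, 2 and 3. The lowest GB2 tumor was 3.27 times the highest PBS tumor in CPM, the count scaled by library size. The mean was 22.5 ± 5.58 FPKM (SD, n = 3) in PBS tumors and 102 ± 10.1 FPKM (SD, n = 3) in GB2 tumors, which is 2.11 ± 0.20 (SE) as a log2 fold change in the edgeR fit. Lyz2 also had the smallest spread of the 9 genes among GB2 tumors, with a coefficient of variation of 9.92% in FPKM. Lyz1, a near-identical neighbor whose reads can be confused with those of Lyz2, was at 0.159 ± 0.0589 FPKM in PBS and 0.869 ± 0.149 FPKM in GB2 tumors (SD, n = 3).

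Adgre1 (ENSMUSG00000004730, plus strand, chr17:57665691-57790527) encodes F4/80, the surface receptor by which mouse macrophages are usually stained. Its level was 0.485, 0.402 and 0.266 FPKM in PBS tumors 1 to 3 and 1.83, 1.72 and 3.72 FPKM in GB2 tumors 1 to 3. GB2 tumor 3 was far above the other GB2 tumors, and the lowest GB2 tumor was still 3.18 times the highest PBS tumor in CPM. Its log2 fold change of 2.55 (standard error 0.43) was the largest of the 9 genes, although the counts behind it were small, with 63 to 109 counts in PBS tumors and 487 to 1035 in GB2 tumors. About 4 counts stand for 1 read pair in this table, so the PBS values rest on 15.8 to 27.2 read pairs.

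Mpeg1 (ENSMUSG00000046805, plus strand, chr19:12438143-12442647) encodes perforin-2, a pore-forming protein that acts on bacteria taken up by phagocytes. It was at 1.28, 2.16 and 1.68 FPKM in PBS tumors 1 to 3 and at 5.35, 7.19 and 9.24 FPKM in GB2 tumors 1 to 3. The groups did not overlap, and the log2 fold change was 2.02 ± 0.28 (SE). Within PBS tumors Mpeg1 kept a nearly fixed proportion to Lyz2, with Lyz2 at 13, 12.8 and 13.8 times its FPKM. In GB2 tumors 1, 2 and 3 this ratio was 20.1, 12.5 and 11.7. GB2 tumor 1 therefore combined a high Lyz2 level with the lowest Mpeg1 level of its group.

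**Figure D2:**
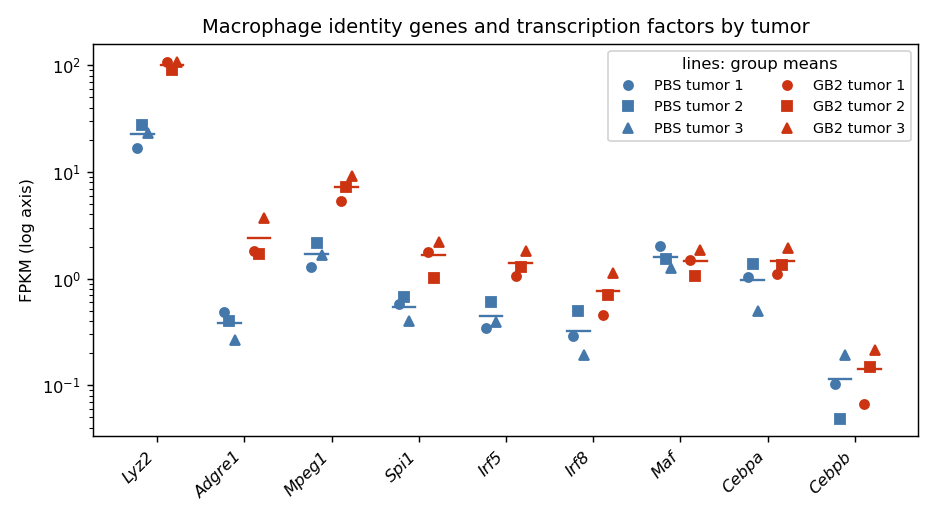
FPKM on a log axis of the 9 genes in each tumor, with blue symbols for PBS and red for GB2 tumors, 1 symbol shape per tumor number and lines at the group means. The GB2 symbols lie above all PBS symbols for Lyz2, Adgre1, Mpeg1, Spi1 and Irf5 and among them for the other 4 genes.

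Among the 6 transcription factors, Spi1 and Irf5 were higher in every GB2 tumor than in every PBS tumor, as were 8.61% of all genes tested, and the other 4 overlapped between the groups. Spi1 (ENSMUSG00000002111, plus strand, chr2:90912735-90944711) was at 0.574, 0.670 and 0.400 FPKM in PBS tumors 1 to 3 and at 1.79, 1.02 and 2.21 FPKM in GB2 tumors 1 to 3. GB2 tumor 2 came closest to the PBS tumors, at 2.92 CPM against 1.89 CPM in PBS tumor 2. The log2 fold change was 1.52 ± 0.38 (SE).

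Irf5 (ENSMUSG00000029771, plus strand, chr6:29526624-29541870) encodes an interferon regulatory factor that acts below Toll-like receptors and induces inflammatory cytokines in macrophages. It was at 0.343, 0.610 and 0.390 FPKM in PBS tumors and at 1.07, 1.29 and 1.82 FPKM in GB2 tumors, in the order of their numbers, with a log2 fold change of 1.56 ± 0.35 (SE). Tnpo3, on the opposite strand, shares 1045 bases of the locus with Irf5, and had 10977 to 22814 counts per tumor and a log2 fold change of 0.16. The libraries keep the strand, but the strand setting of the counting is not given in the sources used here, so reads of the shared stretch could be assigned to either gene.

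Irf8 (ENSMUSG00000041515, plus strand, chr8:121463097-121483433) encodes the related factor that directs monocyte and dendritic cell development. It was at 0.287, 0.496 and 0.193 FPKM in PBS tumors and at 0.453, 0.706 and 1.12 FPKM in GB2 tumors. The groups overlapped, because GB2 tumor 1 (3.23 CPM) lay below PBS tumor 2 (3.68 CPM). The log2 fold change was 1.14 ± 0.46 (SE), and it was 0.77 without GB2 tumor 3 and 1.53 without PBS tumor 2.

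Maf (ENSMUSG00000055435, minus strand, chr8:116409681-116434533) encodes c-Maf, a large MAF factor tied to interleukin-10 and to resident macrophages, and also active in T cells and other tissues. It was the exception among the 9 genes in direction, at 2.02, 1.52 and 1.25 FPKM in PBS tumors and 1.49, 1.06 and 1.86 FPKM in GB2 tumors. The 2 groups covered nearly the same range. The log2 fold change was -0.22 ± 0.31 (SE), and its sign rested on PBS tumor 1, since it was 0.08 without that tumor. Maf was the most abundant factor in PBS tumors, at a mean of 1.60 ± 0.393 FPKM (SD, n = 3). In GB2 tumors its mean of 1.47 FPKM lay beside those of Spi1 (1.68), Cebpa (1.47) and Irf5 (1.39). Spi1 was thus at 0.284 to 0.442 of the Maf level in PBS tumors and at 0.968 to 1.21 of it in GB2 tumors.

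Cebpa (ENSMUSG00000034957, plus strand, chr7:34818718-34821353) encodes C/EBPα, a factor needed for the granulocyte and monocyte lineage and also for adipocytes. It was at 1.04, 1.36 and 0.496 FPKM in PBS tumors and at 1.11, 1.35 and 1.95 FPKM in GB2 tumors. PBS tumor 2 matched GB2 tumor 2, so the groups overlapped, and the log2 fold change was 0.52 ± 0.44 (SE). Relative to Csf1r, the receptor for the macrophage growth factor, Cebpa was steady within PBS tumors, at 1.49 to 1.58 times the Csf1r FPKM. In GB2 tumors, where Csf1r was higher, the ratio was 0.481 to 0.696.

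Cebpb (ENSMUSG00000056501, plus strand, chr2:167530835-167532338) encodes C/EBPβ, a factor that many cells make in response to inflammation. Its mean was the lowest of the 9 genes per length in both groups, although Irf8 was marginally lower in PBS tumor 3. It was at 0.103, 0.0488 and 0.194 FPKM in PBS tumors and 0.0664, 0.148 and 0.214 FPKM in GB2 tumors. These levels rest on 1.5 to 7 read pairs per tumor, too few to measure a difference, and the log2 fold change was 0.22 ± 0.76 (SE). Its sign changed to -0.14 without PBS tumor 2 and to -0.16 without GB2 tumor 3. The Cebpb transcript is 67.2% G or C, above 99.8% of 14995 tested genes with a coding transcript in the GENCODE annotation, and that of Cebpa, at 62.6%, is above 98.7% of them. Over the 61 tested genes whose transcript is more than 65% G or C, the median level was 2.54 FPKM and the median log2 fold change -0.44, against 4.62 FPKM and 0.05 in the 3935 genes between 50% and 55%. The part of base composition in the Cebpb values was not tested. Peds1, which lies on the opposite strand, shares 908 bases with Cebpb and had 5278 to 10709 counts per tumor.

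**Figure D3:**
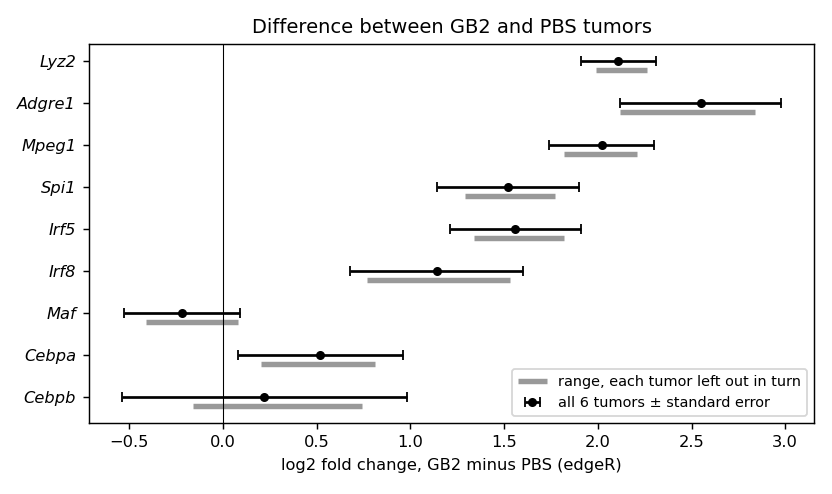
Log2 fold change of GB2 minus PBS tumors for the 9 genes from the edgeR fit, with the standard error as black bars and the range obtained by leaving out each tumor in turn as gray lines. Lyz2, Adgre1 and Mpeg1 lie at or above 2.02, while the gray lines of Maf and Cebpb cross 0.

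Of the 9 genes, 8 had a log2 fold change above 0, against 48.3% of the 19602 genes tested, and 6 had one of 1 or more, against 7.35%. In 5 of 9 the GB2 tumors all lay above the PBS tumors, against 8.61% of all genes, and in 0 of 9 they all lay below, against 6.68%. The study called a gene when its adjusted p was below 0.05 and it differed at least 2-fold. At these limits edgeR's quasi-likelihood test called 0 of 9 and 0% of all genes, limma called 0 of 9, and DESeq2 called 5 of 9 as higher, against 1.8% of all genes, and 0 of 9 as lower, against 0.168%. Without adjustment, edgeR placed 6 of 9 below a p of 0.05, against 6.94% of all genes, and these 6 were also at least 2-fold higher, against 3.74%. The median log2 fold change was 1.52 over the 9 genes and -0.02 over all genes tested. These counts come from the contrast by which the genes were chosen, so nothing is read from them.

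In the order of levels per length, Lyz2 stood first in each of the 6 tumors. In PBS tumors it was followed by Mpeg1 (1.71 FPKM), Maf (1.60), Cebpa (0.962), Spi1 (0.548), Irf5 (0.448), Adgre1 (0.384), Irf8 (0.325) and Cebpb (0.115). Of these neighbors, Lyz2 and Mpeg1, Maf and Cebpa, and Irf8 and Cebpb differed by more than the larger SD of the pair, and the others did not. In GB2 tumors the order was Lyz2, Mpeg1 (7.26 FPKM), Adgre1 (2.43), Spi1 (1.68), Cebpa and Maf (both 1.47), Irf5 (1.39), Irf8 (0.759) and Cebpb (0.143). Adgre1 thus went from the seventh place to the third, although its GB2 mean exceeded that of Spi1 by less than their spread.

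Among GB2 tumors the 9 genes shared the highest tumor, while PBS tumors followed no common order. GB2 tumor 3 had the highest CPM of its group in 9 of 9 genes, while GB2 tumor 1 was lowest in 5 and GB2 tumor 2 in 4. Among PBS tumors, PBS tumor 2 was highest in 6 genes and lowest in 1, PBS tumor 1 highest in 2 and lowest in 3, and PBS tumor 3 highest in 1 and lowest in 5. Over the 6 tumors, each gene was compared with the mean of the others after scaling to unit variance. Pearson's r of the log2 CPM ran from 0.82 to 0.97 for Lyz2, Adgre1, Mpeg1, Spi1, Irf5 and Irf8, and was 0.74 for Cebpa, 0.08 for Cebpb and -0.06 for Maf. The 6 points share the division into groups, so these values describe the tumors and carry no p.

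Among the other tested genes, the 5 whose log2 CPM followed the mean of the 9 genes most closely over the 6 tumors were Pmepa1 (r = 0.996), Ahctf1, Slamf9 and Ythdc2 (each 0.993) and C1qc (0.992). C1qc encodes a chain of complement C1q, which macrophages secrete, and was at 6.81, 8.09 and 4.06 CPM in PBS and 15.5, 20.5 and 36.6 CPM in GB2 tumors. Slamf9, a receptor of the SLAM family, was at 0.184 to 0.553 CPM in PBS and 1.24 to 3.48 CPM in GB2 tumors. Ahctf1 and Ythdc2 followed the same order of tumors with differences of only 0.14 and 0.27 in log2.

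Relatives of the transcription factors were compared in the same fit, from lists made by family and not by how the genes moved. In the IRF family, Irf7 and Irf9 were at least 2-fold higher with an unadjusted p below 0.05. Irf7, the amplifier of the type I interferon response, was at 0.748 ± 0.332 FPKM in PBS and 2.49 ± 1.01 FPKM in GB2 tumors (SD, n = 3; log2 fold change 1.64, edgeR adjusted p = 0.341). Irf9, the DNA-binding part of the interferon-activated complex ISGF3, was at 2.75 ± 0.977 and 6.38 ± 1.06 FPKM (1.15, edgeR adjusted p = 0.276). The log2 fold changes were 0.21 for Irf1, 0.25 for Irf2, -0.22 for Irf3 and -0.36 for Irf4, against 1.56 for Irf5 and 1.14 for Irf8. Irf3, which STING signaling activates as a protein, was at 13.6 FPKM in PBS and 12.4 FPKM in GB2 tumors.

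Of the relatives of Maf, Mafa (-0.53), Maff (-0.45), Mafg (-0.13) and Mafk (0.08) had no unadjusted p under 0.05, and Nrl was too low to test. Among C/EBP genes, Cebpd (-0.06) and Cebpg (-0.19) were near 0 and Cebpe was too low to test, while Ddit3, which encodes the stress factor CHOP, was at 52.8 ± 4.12 FPKM in PBS and 39.2 ± 9.18 FPKM in GB2 tumors (log2 fold change -0.50, edgeR adjusted p = 0.715). The close relatives of PU.1 were low, with Spib at 0.117 FPKM in PBS and 0.141 FPKM in GB2 tumors and Spic too low to test.

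**Figure D4:**
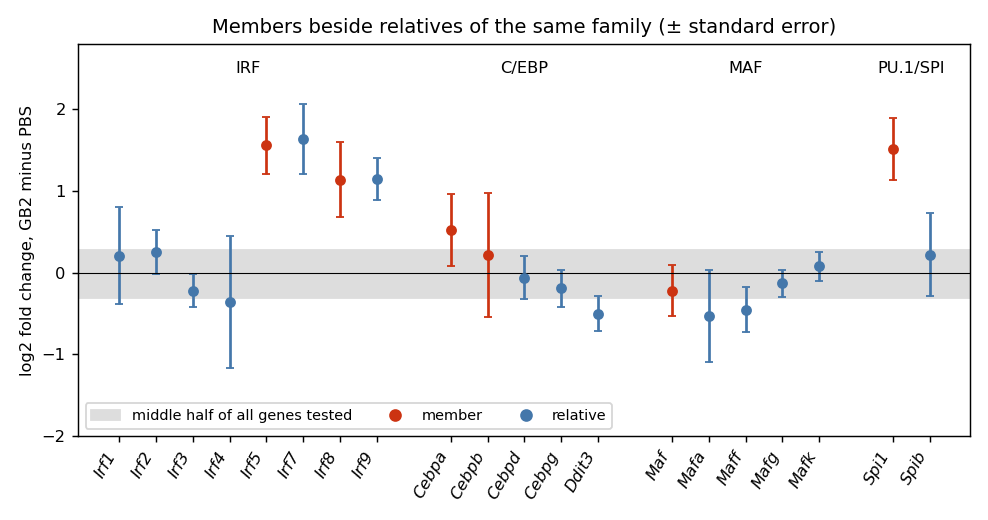
Log2 fold change of GB2 minus PBS tumors with the standard error for tested genes of the IRF, C/EBP, MAF and SPI families, members of the 9 genes in red and relatives in blue. The gray band runs from the lower to the upper quartile of all genes tested (-0.31 to 0.28). Irf5, Irf7, Irf8, Irf9, Cebpa and Spi1 stand above the band and Maf within it.

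Of 64 further transcription factors known from macrophages, 60 were tested. edgeR called 0 of them, 5 were at least 2-fold higher with an unadjusted p below 0.05 (3.74% of all genes), and 0 were lower (0.918% of all genes). DESeq2 called 4 as higher, against 1.8% of all genes, and 0 as lower, against 0.168%. The median log2 fold change was 0.11. Fli1 and Irf9 were among the higher factors with the smallest p values. Fli1, an ETS factor of blood and endothelial cells, was at 0.230 ± 0.0399 FPKM in PBS and 0.809 ± 0.169 FPKM in GB2 tumors (SD, n = 3; edgeR adjusted p = 0.234). Among the lower factors the smallest p values were those of Ddit3, Maff and Bhlhe41. Bhlhe41 had a log2 fold change of -0.59 (edgeR adjusted p = 0.786). Mitf, a factor of osteoclasts and of pigment cells, was at 79.6 FPKM in PBS and 84.8 FPKM in GB2 tumors, in tumors rich in pigment cell RNA.

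Of 30 further identity genes of macrophages, all tested, edgeR called 0 and DESeq2 called 16 as higher, against 1.8% of all genes. In edgeR, 21 were at least 2-fold higher with an unadjusted p below 0.05, against 3.74% of all genes, and 0 were lower, against 0.918%. The GB2 tumors all lay above the PBS tumors in 23 of the 30, against 8.61% of all genes, and the median log2 fold change was 1.70. The smallest p values were those of Cd14, the coreceptor for lipopolysaccharide (log2 fold change 2.24, edgeR adjusted p = 0.186), Trem2 (2.16, edgeR adjusted p = 0.190) and Siglec1, the sialic acid receptor CD169 (1.70, edgeR adjusted p = 0.216). Cd5l was the gene of the list below 0, at -0.13 (edgeR adjusted p = 0.957). Several of these genes were known to be higher in these tumors when the 9 genes were chosen, so this list is not independent support. Gpnmb, a glycoprotein of macrophages and of pigment cells, was at 530 ± 139 FPKM in PBS and 787 ± 230 FPKM in GB2 tumors (SD, n = 3), a level of the order of the pigment cell genes.

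Markers of several other cells were also higher in GB2 tumors without adjustment, although edgeR called 0 genes of these lists after it. DESeq2 called 6 of 7 tested fibroblast, 3 of 7 endothelial, 3 of 7 neutrophil, 3 of 8 monocyte and 1 of 6 dendritic cell genes as higher, against 1.8% of all genes, and 0 genes of the lymphocyte, adipocyte and keratinocyte lists. Fibroblast genes summed to 240 to 413 CPM in PBS and 813 to 1140 CPM in GB2 tumors, with 7 of 7 at least 2-fold higher at an unadjusted p below 0.05. Their first genes, Col1a1, Col3a1 and Pdgfra, had log2 fold changes of 1.45, 1.64 and 1.93. Endothelial genes summed to 48.0 to 65.7 CPM in PBS and 102 to 115 CPM in GB2 tumors, with 4 of 7 higher in the same way and Cdh5, Pecam1 and Kdr at 1.38, 1.34 and 1.44. The other 3 tested genes did not pass these limits, among them Vwf at -0.48 and Prox1 at -0.11, whose groups overlapped.

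Among white blood cells that share several of the 9 genes, neutrophil markers summed to 2.49 to 4.5 CPM in PBS and 9.64 to 12.8 CPM in GB2 tumors, and 4 of 7 tested were higher at the same limits. S100a8, S100a9, Csf3r and Cxcr2 had log2 fold changes of 1.71, 1.31, 2.56 and 2.24, each with the GB2 tumors all above the PBS tumors. Ly6g and Mpo were listed at 0 in all 6 tumors. Dendritic cell markers summed to 1.24 to 3.42 CPM in PBS and 6.71 to 9.85 CPM in GB2 tumors, with 1 of 6 tested higher at these limits. That gene was Itgax, at a log2 fold change of 1.79, while Clec9a had 1.42 with overlapping groups and Xcr1 and Flt3 were too low to test. Of 8 tested monocyte markers 4 were higher and 0 lower at these limits, with Ly6c2, Ccr2 and Plac8 at 1.11, 1.38 and 1.03. Their summed level, 208 to 266 CPM in PBS and 164 to 209 CPM in GB2 tumors, went the other way and was mostly Nr4a1, at 202 to 254 CPM in PBS and 132 to 176 CPM in GB2 tumors. The part of these cells in the values of the 9 genes was not tested.

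Markers of lymphocytes overlapped between the groups in their summed levels. B cell markers summed to 0.761 to 1.51 CPM in PBS and 0.786 to 1.38 CPM in GB2 tumors, with Cd79a at a log2 fold change of -0.21 and Ms4a1 too low to test. T and NK cell markers summed to 0.481 to 4.91 CPM in PBS and 0.691 to 3.45 CPM in GB2 tumors. Cd3e, Cd3d and Cd3g had log2 fold changes of -1.77, -0.34 and -0.30, with standard errors of 1.32, 1.42 and 1.54. Each had 0 counts in PBS tumor 3 and at most 46 in any tumor, too few to measure a difference. In both lists, 0 tested genes had an unadjusted p under 0.05.

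Adipocyte markers, beside which Cebpa has to be read, summed to 82.1, 70.9 and 25.1 CPM in PBS tumors 1 to 3 and to 93.3, 74.7 and 98.2 CPM in GB2 tumors 1 to 3. PBS tumor 3 was lowest in this sum and also in Cebpa. The same tumor was lowest in the fibroblast, keratinocyte, neutrophil, dendritic and T and NK cell sums, so the match is not particular to fat. It was not lowest in the endothelial sum and was highest in the B cell sum. Adipoq, Plin1 and Cidec had log2 fold changes of 0.69, 0.83 and 0.58, and 0 of 8 had an unadjusted p under 0.05. Keratinocyte markers summed to 21.7 to 88.7 CPM in PBS and 70.0 to 123 CPM in GB2 tumors, with Krt5, Krt14 and Krt1 at 0.91, 1.29 and 0.53. Of 8 tested, 1 was at least 2-fold higher with an unadjusted p below 0.05, Trp63 at 1.29, with the GB2 tumors all above the PBS tumors. The part of fat and skin in the Cebpa values was not tested.

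**Figure D5:**
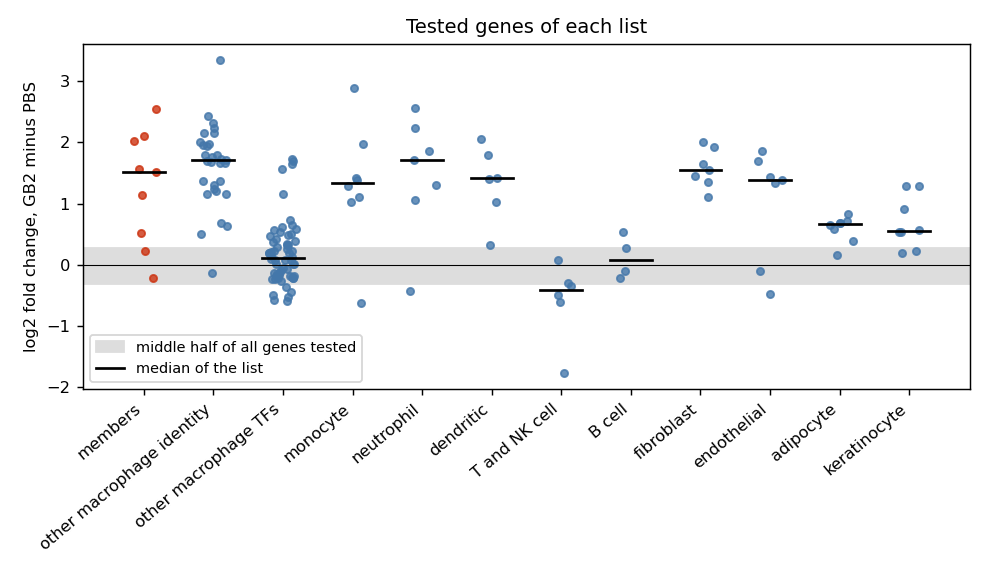
Log2 fold change of GB2 minus PBS tumors for each tested gene of 12 lists, with a black line at the median of the list and a gray band from the lower to the upper quartile of all genes tested. The medians are 1.52 for the 9 genes in red, 1.70 for other macrophage identity genes, 0.11 for other macrophage transcription factors, 1.55 for fibroblast and -0.42 for T and NK cell genes.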

How the data were processed

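Poly-A selected RNA of 6 tumors was sequenced in strand-specific, paired-end libraries. The submitters' processing notes list cutadapt 1.9, HISAT2 2.2.1, StringTie 2.1.6, DESeq2, edgeR and the build mm10, without roles. Of 31999 gene IDs shared with GENCODE M21 on GRCm38, 641 (2%) have the same start and end, so gene positions are those of the deposited table, whose build could not be matched, and promoter positions are on GRCm38.p6. The authors deposited estimated counts, whole numbers not scaled between tumors, of which about 4 stand for 1 read pair, and FPKM, which they divided by transcript length and library size.

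The 9 genes, the gene lists and the tests were chosen with earlier results of these data known. The main test was the quasi-likelihood test of edgeR 4.0.16 (R 4.3.3) between the 2 groups, with TMM scaling, over the 19602 genes that passed filterByExpr (minimum count 10), and p-values were adjusted over these genes after Benjamini and Hochberg. Standard errors come from the test statistic, and a prior count of 2 was added for log2 CPM. Alternatives were DESeq2 1.42.0, limma 3.58.1 on log2(FPKM + 1), other scaling and filters, a block and each tumor left out. The common dispersion over the tested genes was 0.164, with 3 tumors per group. The test itself used gene-wise dispersions, so standard errors differed between genes. The computation was tested on simulated counts.

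Named genes were the 9 genes, tested relatives of the IRF, C/EBP, MAF and SPI families, the smallest p values (3 per direction) of the transcription factor and identity lists, the first 3 genes of each marker list and the 5 genes with the most similar pattern. Gpnmb, Mitf, Nr4a1, Mpo, Csf3r, Cxcr2, Itgax, Vwf, Prox1, Trp63, Lyz1, Csf1r and the pigment cell and intestinal genes were added after their values had been seen. A few genes named by this rule are not reported here. No per-sample column was left out.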

Additional observations from a re-analysis of the deposited data

How the results depend on the processing

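With edgeR, 0 genes were called under any scaling, filter, block or omission of a tumor that was run, and limma called 0. DESeq2 called 385 genes, of which 352 were higher (1.8% of all genes tested) and 33 lower (0.168%). Among them were 4 of the 60 tested further transcription factors and 16 of the 30 further identity genes, all higher. On log2(FPKM + 1), which understates changes of low genes, the log2 fold changes were 1.26 for Adgre1, 1.59 for Mpeg1, 0.77 for Spi1, 0.72 for Irf5, 0.40 for Irf8 and 0.72 for the median of the 9 genes. Leaving out each tumor in turn gave 1.99 to 2.26 for Lyz2, 2.12 to 2.84 for Adgre1, 1.82 to 2.21 for Mpeg1, 1.29 to 1.77 for Spi1, 1.34 to 1.82 for Irf5, 0.77 to 1.53 for Irf8, -0.41 to 0.08 for Maf, 0.20 to 0.81 for Cebpa and -0.16 to 0.74 for Cebpb. With counts divided by 4, Cebpb was too low to test.

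The labels do not state that equal tumor numbers mark pairs. The deviations of same-numbered tumors from their group means correlated at 0.031, 0.154 and -0.245. Those of differently numbered tumors ran from -0.258 to 0.239. With 3 tumors per group these values depend on each other, so they cannot decide whether tumors were paired. With the replicate number as a block, the log2 fold changes were 2.12 for Lyz2, 2.50 for Adgre1 and -0.21 for Maf, and the count of called genes was 0.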
